A study of Mus musculus with 8 samples.

Results

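The 8 genes described here, Duox2, Duoxa2, Nos2, Lcn2, Pigr, Dmbt1, Saa1 and Il18, are epithelial genes of mucosal defence. They were taken by name, with earlier results of these data known. Their values were followed in RNA sequencing of small intestinal crypt organoids, epithelial cultures grown in Matrigel from isolated crypts. Of the 8 genes, 6 had a value, among 14007 genes with a value in all. Lcn2 and Saa1 had no entry in any of the 8 samples. The samples were 4 WT and 4 MG53-TG organoid cultures. MG53-TG mice overexpress MG53, also called TRIM72, a tripartite motif protein of cell membrane repair, throughout the body, and the WT mice are their littermates. The labels give only these genotypes, and so does 1 passage of the study on its bulk sequencing of organoids. Another passage speaks of a crypt organoid transcriptome of MG53-TG mice crossed to an Lgr5-EGFP-IRES-CreERT2 line. The labels were followed. Both groups were grown in the same organoid medium, with no further treatment in the labels. The promoter of the transgene, the age of the mice and whether each culture came from its own animal are not given in the sources used here, so the p-values below measure only the spread between these cultures.

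The intestinal epithelium defends itself with products that it can switch on when it meets microbes or cytokines. DUOX2 is an oxidase that releases hydrogen peroxide at the luminal face, and DUOXA2 is the partner that takes it out of the endoplasmic reticulum. NOS2 makes nitric oxide from arginine, and lipocalin 2, encoded by Lcn2, withholds iron from bacteria by binding their siderophores. The polymeric immunoglobulin receptor, encoded by Pigr, carries IgA across the cell into the lumen. DMBT1 is a secreted scavenger receptor protein that binds bacteria, SAA1 is an acute phase protein, and IL-18 is a cytokine that epithelial cells store as a precursor until caspase-1 cleaves it. NF-κB, STAT and interferon signalling are known to act on many of these genes.

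Expression was deposited as FPKM, a measure scaled to transcript length and library size, for each transcript event such as a start or an end. Start events, or end events where these were higher on average, were summed per gene. The depth is unknown without read counts. Start events added up to between 269094 and 284330 FPKM per sample. Trim72 was at 16.4, 27.4, 31.9 and 36.5 FPKM in the 4 MG53-TG cultures and without an entry in the WT cultures. All 10 epithelial identity genes were expressed, of which 7 were lower and 1 was higher in MG53-TG. Of 22 immune markers 13 had no entry, the pan-leukocyte gene Ptprc did not exceed 0.000508 FPKM in any sample, and the summed FPKM ranged from 3.83 to 9.24 in WT and from 1.26 to 2.89 in MG53-TG. Nearly all of it in WT came from the lysosomal gene Cd68, the 1 immune marker tested, which fell from 6.14 ± 2.37 to 0.935 ± 0.340 FPKM (SD, n = 4 per group; limma adjusted p = 0.000561). Others went the other way but stayed under the filter on low values. The neutrophil genes S100a8 and S100a9 had no entry in WT or in MG53-TG sample 1 and were at 0.0744 to 0.720 and 0.690 to 1.47 FPKM in MG53-TG samples 2 to 4, and the myeloid lysozyme gene Lyz2 was at up to 0.0616 FPKM in WT and at 0.119 to 0.296 FPKM in MG53-TG. The 12 mesenchyme and endothelium markers summed to 2.24 to 4.00 FPKM in WT and to 1.31 to 6.83 FPKM in MG53-TG. The fibroblast collagen genes Col1a1, Col1a2 and Col3a1 had the same pattern, with no entry in WT or in MG53-TG sample 1 and 0.465 to 2.07 FPKM in MG53-TG samples 2 to 4. Col1a2 and Col3a1, 2 of the 4 markers tested, passed as higher in MG53-TG (limma adjusted p = 0.00385 and 0.000691) in a fit that set MG53-TG sample 1 as missing and so used 7 samples. With that absent entry counted as 0 both fell under the filter and were not tested. Both likewise fell under the filter on low values, and so were not tested, when any of MG53-TG samples 2 to 4 was left out. Markers of epithelial cell types differed between the groups. The summed FPKM of 15 enterocyte markers ranged from 1015 to 1187 in WT samples and from 12028 to 13277 in the MG53-TG samples, with 15 of 15 higher. The sum over 11 stem and proliferation markers ranged from 888 to 1072 in WT and from 171 to 588 in MG53-TG, and 8 of 10 Paneth and 7 of 10 goblet markers tested were lower. The MG53-TG samples stood apart in pairs. In samples 1 to 4 the stem and proliferation markers summed to 572, 588, 248 and 171 FPKM and the goblet markers to 257, 336, 611 and 730 FPKM. The same pairs differed in Duox2, Duoxa2 and Pigr. All 6 members with a value passed the test below when either pair was left out, with log2 fold changes without samples 1 and 2 and without samples 3 and 4 of -1.20 and -1.77 for Duox2, -1.41 and -1.74 for Duoxa2, and 0.86 and 0.28 for Pigr. In a bulk sample, fewer cells of a type and less RNA per cell cannot be told apart. The part of these marker differences in the results on the defence genes was not tested.

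Duox2 and Duoxa2 lie head to head on chromosome 2 (GRCm38), Duox2 on the minus strand from 122279247 to 122298449 and Duoxa2 on the plus strand from 122298900 to 122302885. The annotated genes are 450 bases apart. The files list a further Duox2 start event from 122298551 to 122298735 that matches no annotated Duox2 exon, which would leave 164 bases between both starts. Those 164 bases are shown because the 2 genes moved together, and the 250 bases before the RefSeq starts of Pigr and Il18 are shown because these were the members that rose. The sequences are from RefSeq, build GRCm38.p6, on the plus strand, which is also the strand of Duoxa2, Pigr and Il18. Capitals mark matches to letters found on either strand. They are the octamer ATTTGCAT, the TATA letters TATAAA and the E-box CACGTG.
Between Duox2 and Duoxa2, chr2:122298736-122298899: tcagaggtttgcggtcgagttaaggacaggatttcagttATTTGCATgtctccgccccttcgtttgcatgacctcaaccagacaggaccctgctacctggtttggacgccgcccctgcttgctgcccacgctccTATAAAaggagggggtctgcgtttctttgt
Before Pigr, chr1:130826434-130826683: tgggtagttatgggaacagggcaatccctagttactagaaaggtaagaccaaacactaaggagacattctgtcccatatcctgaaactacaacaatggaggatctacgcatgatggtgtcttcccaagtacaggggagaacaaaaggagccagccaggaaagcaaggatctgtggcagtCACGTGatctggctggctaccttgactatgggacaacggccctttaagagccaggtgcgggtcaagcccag
Before Il18, chr9:50554450-50554699: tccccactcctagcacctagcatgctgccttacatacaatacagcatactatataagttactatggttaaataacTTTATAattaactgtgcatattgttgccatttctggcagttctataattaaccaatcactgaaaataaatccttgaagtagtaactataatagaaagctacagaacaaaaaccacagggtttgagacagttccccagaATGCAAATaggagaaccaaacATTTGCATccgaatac

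The TATA letters between Duox2 and Duoxa2 start 30 bases before the Duoxa2 start, and 8.20% of 32851 promoter windows of 164 bases hold them. The same letters, on the minus strand, are 175 bases before the RefSeq start of Il18, against 12.4% of windows of 250 bases. The annotated Il18 gene used for the values starts further on, at 50554827, and no Il18 start event was listed to decide between them. The octamer is 125 bases before the Duoxa2 start, against 1.09% of windows of 164 bases with a match. It occurs 2 times before the RefSeq start of Il18, against 1.60% of windows of 250 bases. The E-box starts 71 bases before Pigr, and 6.02% of the 250-base windows hold one. None of the 3 windows holds the STAT letters TTCNNNGAA (4.47% of 164-base and 7.02% of 250-base windows), the κB letters GGG and TTTCC 2 bases apart (1.00% and 1.41%) or the IRF letters, GAAA and GAAA 2 bases apart (1.79% and 2.98%), searched on both strands. The octamer, TATA and E-box letters were added to the search after the sequences had been read, so these matches describe the windows only. RefSeq windows were found for 6 of the 8 genes, and not for Nos2 and Dmbt1.

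All 6 members with a value differed between the groups. Duox2, Duoxa2, Nos2 and Dmbt1 were lower in the MG53-TG organoids, and Pigr and Il18 were higher. For each of the 6 genes, the MG53-TG values lay outside the range of the WT values. The comparison used limma on log2(FPKM + 1), a scale on which low genes show less than their true change, over 10922 genes whose mean reached 0.5 FPKM, at a Benjamini-Hochberg adjusted p of 0.05. In that fit 44.5% of all genes were called, 29.0% lower and 15.5% higher, so a call by itself is common in this comparison. The members were chosen with earlier results of these data known, so their 6 of 6 calls cannot be weighed against that share. Over all genes, 44.6% had groups that did not overlap, 28.9% with MG53-TG below and 15.7% with MG53-TG above.

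**Figure D1:**
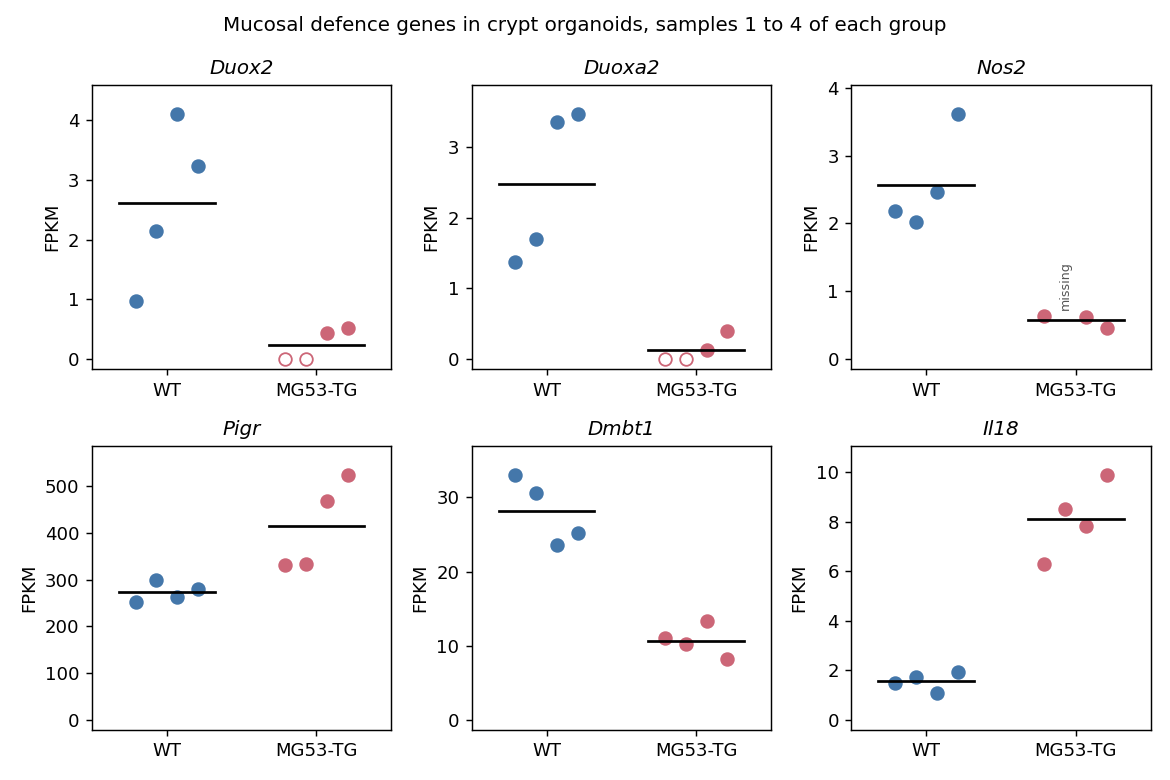
FPKM of the 6 members with a value, 1 panel per gene, with samples 1 to 4 of each group from left to right and the group mean as a line. Open circles are samples without an entry that were counted as 0, and Nos2 was missing in MG53-TG sample 2. Duox2, Duoxa2, Nos2 and Dmbt1 sit lower and Pigr and Il18 higher in the MG53-TG samples, with no overlap.

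On the FPKM scale, which is per length and allows genes to be compared, Pigr was the most abundant member in the WT organoids at 273 FPKM on average, followed by Dmbt1 at 28.1 FPKM. The remaining 4 genes were low, with means of 2.61 FPKM for Duox2, 2.57 FPKM for Nos2, 2.47 FPKM for Duoxa2 and 1.57 FPKM for Il18, and each of these overlapped with its neighbour in the order. In the MG53-TG organoids Pigr was again first, at 414 FPKM. Dmbt1 at 10.7 FPKM and Il18 at 8.12 FPKM overlapped with each other, and Nos2, Duox2 and Duoxa2 followed below 1 FPKM. Il18 moved from the last place to the third. Among all genes tested, the mean level of Il18 stood at percentile 13.0 in WT and 53.6 in the MG53-TG organoids, and that of Pigr at 98.8 and 99.0.

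Duox2 was at 0.979, 2.14, 4.09 and 3.23 FPKM in WT samples 1 to 4. MG53-TG samples 3 and 4 had 0.439 and 0.518 FPKM, whereas MG53-TG samples 1 and 2 had no entry and were counted as 0. Every WT sample was thus above every MG53-TG sample, and WT sample 1 was the nearest to them. The log2 fold change was -1.48 (SE, the standard error, 0.30, limma adjusted p = 0.00436), and the difference in mean FPKM had p = 0.0286 in a two-sided exact permutation test, the smallest p that 4 samples against 4 allow. The values come from the end event of the gene, and the annotated start event was listed only in WT samples, at 0.0795 to 0.212 FPKM. The unannotated start event between both genes was likewise listed only in WT, at 0.848, 1.93, 3.52 and 3.11 FPKM in samples 1 to 4.

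Duoxa2 was at 1.37, 1.69, 3.36 and 3.46 FPKM in WT samples 1 to 4, whereas MG53-TG samples 3 and 4 had 0.136 and 0.397 FPKM. As for Duox2, MG53-TG samples 1 and 2 had no entry. The log2 fold change was -1.57 (SE 0.24, limma adjusted p = 0.00107; two-sided exact permutation p = 0.0286). The oxidase and its maturation factor ordered the samples nearly alike, with WT samples 3 and 4 changing places. WT samples 3 and 4 were the highest for both genes and WT sample 1 was the lowest WT sample for both. The FPKM of Duoxa2 was 1.40, 0.792, 0.820 and 1.07 times that of Duox2 in WT samples 1 to 4, and 0.309 and 0.766 times in MG53-TG samples 3 and 4. With 0.1 in place of 1 as the added constant, the log2 fold changes were -3.33 for Duox2 and -3.69 for Duoxa2 (limma adjusted p = 0.00753 and 0.0015).

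**Figure D2:**
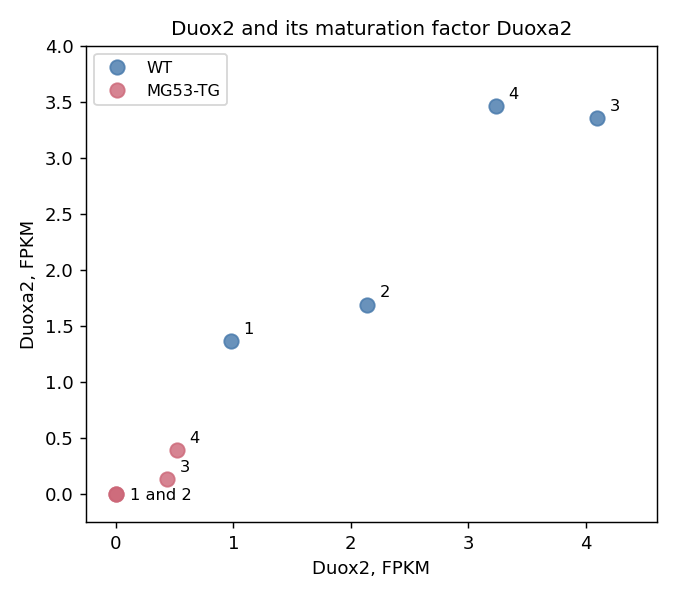
FPKM of Duox2 (x axis) and Duoxa2 (y axis), 1 point per culture with its sample number, WT in blue and MG53-TG in red. The MG53-TG points lie in the lower left corner, samples 1 and 2 at 0 for both genes, and WT samples 3 and 4 are highest for both.

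Of the other genes of oxidant generation, 14 were listed, of which 9 had no entry, among them the paralogs Duox1 and Duoxa1, and 2, including the oxidase gene Nox1, were under the filter on low values. The NOX1 organizer gene Noxo1 fell from 5.47 ± 0.876 to 2.79 ± 0.877 FPKM (SD, n = 4 per group; log2 fold change -0.79, limma adjusted p = 0.00787). Noxa1, which encodes the NOX1 activator, was at 1.32, 1.40, 1.86 and 2.08 FPKM in WT samples and had no entry in any MG53-TG sample (limma adjusted p = 7.3e-05). Rac1, the GTPase of these oxidases, did not pass the test, at 69.1 FPKM in WT and 64.2 FPKM in MG53-TG organoids. Thus 2 of 3 tested genes were lower, against 29.0% of all genes, with a median log2 fold change of -0.79 against -0.17 over all genes.

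Nos2 (chromosome 11, 78920787 to 78960254) was at 2.18, 2.03, 2.46 and 3.61 FPKM in WT samples 1 to 4. In MG53-TG samples 1, 3 and 4 it was at 0.641, 0.617 and 0.460 FPKM, and sample 2 had no entry. Because the other MG53-TG samples had a median of at least 0.5 FPKM, that value was set as missing and the fit used 7 samples. The MG53-TG values were close to each other and the highest of them was below the lowest WT value. The log2 fold change was -1.16 (SE 0.17, limma adjusted p = 0.0015), and -1.33 with the absent entry counted as 0 (limma adjusted p = 0.00131). With 4 against 3 samples the exact two-sided permutation test could not go below p = 0.0571, which is the value it gave. The values come from the end event. The 2 start events of the gene were listed only in WT samples, where the first, at 1.91 to 3.46 FPKM, held most of the total. From start events alone the log2 fold change was -1.82, and with the constant 0.1 it was -1.97.

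The genes of nitric oxide and arginine handling moved in both directions. Nos3, the endothelial synthase gene, was at 1.07, 1.40, 0.902 and 0.985 FPKM in the WT samples, was listed in MG53-TG sample 3 alone at 0.489 FPKM, and passed the test (limma adjusted p = 0.00285). Nos1 had no entry. Ass1, which encodes the enzyme that starts the rebuilding of arginine from citrulline, fell from 5.99 ± 0.393 to 2.27 ± 0.671 FPKM (SD, n = 4 per group; log2 fold change -1.11, limma adjusted p = 0.000635). The arginine transporter gene Slc7a1 fell from 20.1 ± 3.80 to 9.62 ± 3.28 FPKM (SD, n = 4 per group; limma adjusted p = 0.00954). Nostrin, whose product binds endothelial nitric oxide synthase, rose from 8.28 ± 1.03 to 18.6 ± 5.68 FPKM (SD, n = 4 per group; limma adjusted p = 0.00455). In all, 2 of 12 tested genes of this list were higher, 3 were lower and 7 did not pass, with a median log2 fold change of -0.0053. With median-of-ratios scaling 5 were higher and 3 lower. Without that scaling 41.7% of the tested genes of this list passed, against 44.5% of all genes.

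Pigr (chromosome 1, 130826684 to 130852249) was at 251, 299, 262 and 280 FPKM in WT samples 1 to 4 and, in the same order, 331, 333, 468 and 524 FPKM in the 4 MG53-TG samples. MG53-TG samples 1 and 2 were just above the highest WT sample and samples 3 and 4 were well above it. The mean was 1.52 times that of the WT, with 273 ± 20.7 against 414 ± 97.4 FPKM (SD, n = 4 per group). The log2 fold change of 0.57 (SE 0.16, limma adjusted p = 0.0183; two-sided exact permutation p = 0.0286) was the smallest among the members. It did not pass the test with quantile normalization, where the log2 value was 0.35 (limma adjusted p = 0.0536). It also did not pass without WT sample 1 (0.53, limma adjusted p = 0.0504) or without MG53-TG sample 3 (0.50, limma adjusted p = 0.0517). The first start event of the gene held 99.9% of its FPKM in WT and 100.0% in the MG53-TG samples, so the other starts contributed little in either group.

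Of the other genes around IgA transport, 3 of 5 tested fell, against 29.0% of all genes. Ccl28, which encodes a chemokine that draws IgA plasma cells, was at 17.2, 18.3, 19.0 and 17.5 FPKM in the WT against 7.92, 9.98, 9.76 and 8.12 FPKM in the MG53-TG samples, a log2 difference of -0.94 (SE 0.11, limma adjusted p = 0.000217). Yes1, which encodes a kinase of receptor transcytosis, fell from 22.6 ± 1.71 to 11.8 ± 2.07 FPKM (SD, n = 4 per group; limma adjusted p = 0.000968). The third lower gene was Mal2, a gene of transcytosis, at -0.35 on the log2 scale (limma adjusted p = 0.00781). The vesicle GTPase genes Rab11a and Rab25 did not pass, at log2 fold changes of 0.25 and 0.38. Jchain, a plasma cell gene whose product joins polymeric IgA, had no entry. The median log2 fold change of the 5 genes was -0.35. By limma 0 were higher at the adjusted threshold, and 1, Rab25, at an unadjusted p under 0.05.

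Dmbt1 (chromosome 7, 131032053 to 131121630) was at 33.0, 30.7, 23.6 and 25.2 FPKM in WT samples 1 to 4 and, in the same order, 11.1, 10.2, 13.3 and 8.18 FPKM in the 4 MG53-TG samples. The groups were far apart relative to their spread, with means of 28.1 ± 4.46 and 10.7 ± 2.11 FPKM (SD, n = 4 per group). The log2 fold change was -1.32 (SE 0.16, limma adjusted p = 0.000351; two-sided exact permutation p = 0.0286), and it lay between -1.42 and -1.14 under the 23 other settings tried. All of these passed the threshold.

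Dmbt1 has up to 48 annotated exons, many of which encode repeated scavenger receptor domains, and it held 59 of the 80 transcript events of the members. The FPKM of an event as a percentage of the value of its gene could be compared for 29 of them, with 2 of Pigr and 1 of Il18. For Dmbt1 that value is its single end event, so the percentages of its other events are ratios to it and can exceed 100%. Of these 32 events, 0 had an unadjusted p of at most 0.05 in the two-sided exact permutation test. With a smallest possible p of 0.0286 and 32 events, this test could not show a change in a few of them after adjustment. A 33-base exon at 131039017 to 131039049 was included at 34.9%, 5.32%, 39.3% and 30.7% of the end-event FPKM in WT samples 1 to 4 and at 48.4%, 35.7%, 28.0% and 18.1% in MG53-TG samples 1 to 4, an overlapping range. The transcripts with 8 consecutive internal exons between 131049910 and 131065096 were at 26.7% ± 6.23 in WT and 34.7% ± 10.2 in the MG53-TG samples (SD, n = 4 per group). The first start event was at 97.7% ± 3.17 of the end event in WT and 90.1% ± 7.73 in the MG53-TG samples (SD, n = 4 per group; exact permutation p = 0.143).

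**Figure D3:**
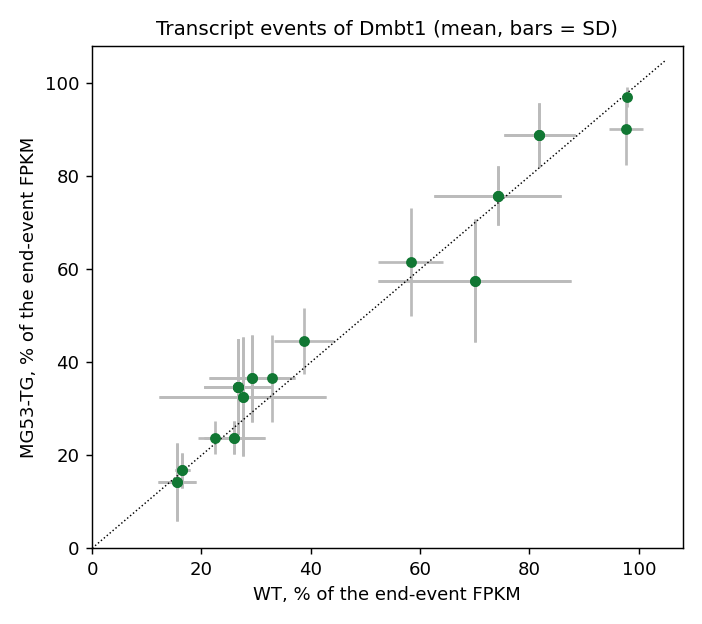
FPKM of each of 29 transcript events of Dmbt1 as a percentage of its end event, mean of 4 WT samples (x axis, %) against the mean of 4 MG53-TG samples (y axis, %), with bars for the SD and a dotted line of equal percentages. Several events have the same percentages and lie on each other. The points follow the line, with SD bars that reach or nearly reach it.

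Of 15 genes listed under secreted pattern binding and scavenger receptors, 10 were tested. Of these 5 were lower, 1 was higher and 4 did not pass, with a median log2 fold change of -0.41. The lower genes include Nlrp6, an inflammasome sensor gene rather than one of a secreted protein, which is counted again below around IL-18. The share past the threshold was 60%, against 44.5% of all genes. Lgals3, which encodes a galactoside-binding lectin, was at 40.6, 41.4, 51.7 and 53.0 FPKM in the WT against 15.2, 11.9, 15.4 and 11.5 FPKM in the MG53-TG samples (log2 fold change -1.72, SE 0.14, limma adjusted p = 3.75e-05). The intelectin gene Itln1, which is also a Paneth marker, fell from 232 ± 80.5 to 88.0 ± 31.9 FPKM (SD, n = 4 per group; limma adjusted p = 0.0101). Another lectin gene, Lgals4, went the other way, from 136 ± 34.3 to 361 ± 74.8 FPKM (SD, n = 4 per group; log2 fold change 1.42, limma adjusted p = 0.000763), but its log2 fold change was -0.14 from start events alone (limma adjusted p = 0.955).

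Il18 (chromosome 9, 50554827 to 50581840) was at 1.49, 1.73, 1.09 and 1.95 FPKM in WT samples 1 to 4 and, in the same order, 6.27, 8.52, 7.81 and 9.87 FPKM in the 4 MG53-TG samples. The lowest MG53-TG sample was above 3 times the highest WT sample. The means were 1.57 ± 0.368 and 8.12 ± 1.5 FPKM (SD, n = 4 per group), a 5.19-fold difference. The log2 fold change of 1.83 (SE 0.16, limma adjusted p = 5.7e-05; two-sided exact permutation p = 0.0286) was exceeded by 2.23% of all genes tested. It lay between 1.71 and 2.31 under the 22 other settings that gave a value. The gene had 1 end event and no start event, so its value rests on the end of its transcripts. A retained intron from 50576705 to 50577761 was listed in MG53-TG sample 1 alone, at 2.03 FPKM, where the gene was at 6.27 FPKM.

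**Figure D4:**
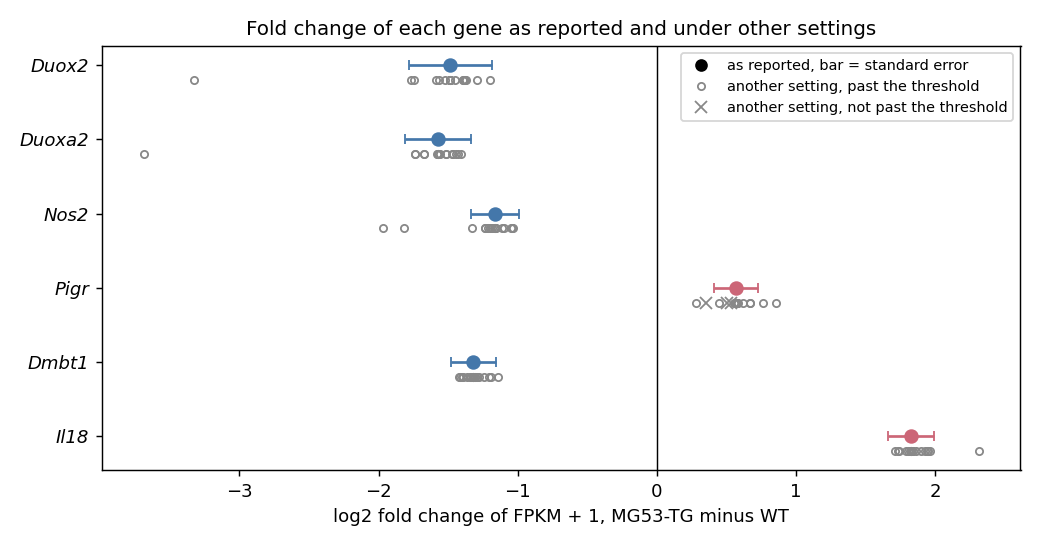
Log2 fold change of FPKM + 1 (x axis, MG53-TG minus WT) of the 6 members as reported, with the standard error as a bar, and under every other setting below it. The 3 crosses of Pigr are the settings in which it did not pass the threshold, at 0.35, 0.50 and 0.53, and the points of Duox2 and Duoxa2 farthest to the left, at -3.33 and -3.69, are those with the constant 0.1.

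Several genes of the machinery around IL-18 rose too. Casp1, the gene of the caspase that cleaves the precursor, was at 13.1, 20.2, 19.0 and 14.6 FPKM in the WT against 30.4, 30.1, 50.5 and 51.1 FPKM in the MG53-TG samples, a log2 difference of 1.20 (SE 0.22, limma adjusted p = 0.00289). Casp4, the gene of the caspase that senses lipopolysaccharide in the cytosol, rose by 1.10 on the log2 scale (limma adjusted p = 0.000223). Naip1, which encodes a sensor of bacterial secretion systems, was at 3.35, 1.40, 4.13 and 4.86 FPKM in the WT against 19.3, 20.8, 4.90 and 12.1 FPKM in the MG53-TG samples (log2 fold change 1.69, limma adjusted p = 0.0136). MG53-TG sample 3 was barely above the highest WT sample, and without MG53-TG samples 1 and 2 Naip1 did not pass (1.07, limma adjusted p = 0.0852). The Naip genes are close copies of each other, so their reads may have been divided between them. Nlrp6, an epithelial inflammasome sensor gene, was lower, at 55.4 ± 6.73 against 34.7 ± 10.5 FPKM (SD, n = 4 per group; log2 fold change -0.70, limma adjusted p = 0.0254). It did not pass with median-of-ratios scaling (-0.52, limma adjusted p = 0.136), nor without WT sample 2, 3 or 4 or MG53-TG sample 1 (adjusted p in limma of 0.0505, 0.0646, 0.0633 and 0.0568) or without both MG53-TG samples 1 and 2 (-0.33, limma adjusted p = 0.0571). Pycard, the adaptor gene, did not pass, with 18.3 and 19.6 FPKM. Of 14 genes tested, 6 were higher, 2 lower and 6 did not pass, with a median log2 fold change of 0.38 against -0.17 over all genes. Over all genes 15.5% were higher and 29.0% lower. The higher genes include the Naip1 copies Naip5 and Naip6, whose groups overlapped. They also include Nlrp1b, near the floor, at means of 0.0174 FPKM in WT and 1.05 FPKM in MG53-TG. On the receiving side, Il18r1 was listed in MG53-TG sample 4 alone, at 0.496 FPKM. The decoy gene Il18bp was at most 0.595 FPKM in any sample, and Il18rap had no entry.

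Lcn2 (chromosome 2, 32384633 to 32388252) and Saa1 (chromosome 7, 46740497 to 46742980) could not be compared, because no event of either was listed in any sample. The absence of an entry does not show that a gene was silent, since 57.6% of 22028 protein-coding genes of the annotation had an entry in any sample. An entry was found for 67.0% of the genes with several transcripts, the class of both Lcn2 and Saa1. All 12 reference genes that every cell or every epithelial cell uses had an entry. Saa2, a near-identical copy next to Saa1, and Saa4 had no entry either. Saa3 was listed in WT samples 1 and 4 and MG53-TG sample 1, at 0.0869, 0.0951 and 0.197 FPKM.

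The neighbours of these genes in function could be followed in part. Slc22a17, which encodes a receptor for lipocalin 2, stayed under the filter, at up to 0.125 FPKM. Of the iron genes, Slc11a2, which encodes the iron importer of the apical membrane, rose from 85.8 ± 12.8 to 230 ± 66.4 FPKM (SD, n = 4 per group; log2 fold change 1.38, limma adjusted p = 0.000968), but from end events alone its log2 fold change was 0.40 (limma adjusted p = 0.111). The ferritin gene Fth1 was at 389, 497, 414 and 485 FPKM in the WT against 1001, 854, 955 and 703 FPKM in the MG53-TG samples (log2 fold change 0.97, limma adjusted p = 0.000568). The transferrin receptor gene Tfrc fell from 217 ± 44.8 to 119 ± 20.4 FPKM (SD, n = 4 per group; limma adjusted p = 0.00425). In this list 3 of 4 tested genes were higher and 1 was lower, against 15.5% higher and 29.0% lower over all genes. Beside the serum amyloid genes, the complement gene Cfb rose from 28.7 ± 0.722 to 40.8 ± 1.46 FPKM (SD, n = 4 per group; log2 fold change 0.49, limma adjusted p = 0.00126). Il1rn, which encodes the interleukin 1 receptor antagonist, fell from 14.8 ± 3.14 to 4.88 ± 1.04 FPKM (SD, n = 4 per group; log2 fold change -1.42, limma adjusted p = 0.00048). These were the 2 genes tested of 13 acute phase genes listed.

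Lists of the signalling pathways known to act on many of the members, which also hold targets of these pathways, moved in part and not in 1 direction. Of 28 tested genes of NF-κB and Toll-like receptor signalling, 9 were lower, 1 was higher and 18 did not pass, with a median log2 fold change of -0.30. Nfkbia, which encodes the inhibitor IκBα and is itself induced by NF-κB, was at 30.6, 28.5, 45.1 and 46.3 FPKM in the WT against 18.6, 19.0, 17.4 and 17.9 FPKM in the MG53-TG samples (log2 fold change -0.97, SE 0.17, limma adjusted p = 0.00201). The receptor kinase gene Irak1 fell from 15.8 ± 7.49 to 4.66 ± 1.22 FPKM, and Irak2 rose from 5.22 ± 0.588 to 9.68 ± 0.229 FPKM (SD, n = 4 per group; limma adjusted p = 0.00599 and 0.000539). Tnf, an activator of this pathway, was at 1.81, 1.46, 1.82 and 2.47 FPKM in the WT, was listed in MG53-TG sample 1 alone at 0.267 FPKM, and passed the test (limma adjusted p = 0.000141).

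Of 15 tested genes of IL-22, IL-17 and IL-6 signalling, 4 were higher and 2 lower, with a median log2 fold change of 0.16. Here 40% passed the threshold, against 44.5% of all genes. The antimicrobial lectin gene Reg3g, a known target of IL-22, was at 4.91, 6.67, 8.05 and 7.95 FPKM in the WT against 30.2, 33.4, 77.0 and 90.9 FPKM in the MG53-TG samples. Its log2 fold change was 2.76 (SE 0.36, limma adjusted p = 0.000481). The related gene Reg3b rose from 0.540 ± 0.290 to 2.74 ± 1.55 FPKM (SD, n = 4 per group; limma adjusted p = 0.0113). For Reg3g and Reg3b, as for Pigr and Casp1, MG53-TG samples 3 and 4 were the highest of all samples. The regulator gene Bcl3 fell from 6.53 ± 1.04 to 3.62 ± 0.914 FPKM (SD, n = 4 per group; limma adjusted p = 0.0119). On the receptor side, Il10rb, a chain of the IL-22 receptor, rose from 14.2 ± 1.33 to 22.4 ± 1.85 FPKM and Il17ra, the IL-17 receptor gene, from 1.34 ± 0.391 to 3.30 ± 0.836 FPKM (SD, n = 4 per group; limma adjusted p = 0.00186 and 0.00445). The other IL-22 receptor chain gene, Il22ra1, and Stat3 did not pass, with log2 fold changes of 0.15 and 0.27.

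Of 17 tested interferon genes, 2 were higher, 1 was lower and 14 did not pass, a share of 17.6% past the threshold against 44.5% of all genes. Ifnar2, a chain of the type I interferon receptor, rose from 2.94 ± 1.02 to 6.48 ± 0.636 FPKM (SD, n = 4 per group; limma adjusted p = 0.00306). Oas1a, an interferon-induced synthetase gene, fell from 4.64 ± 1.49 to 0.944 ± 0.366 FPKM (SD, n = 4 per group; log2 fold change -1.52, limma adjusted p = 0.000616). Irf1, a transcription factor gene known to act on Nos2, was at 3.22, 3.02, 1.80 and 2.25 FPKM in the WT against 5.69, 4.83, 3.69 and 3.42 FPKM in the MG53-TG samples, a log2 difference of 0.60 (limma adjusted p = 0.0297). It did not pass without WT sample 3 or 4 or MG53-TG sample 1 or 2 (adjusted p in limma of 0.0748, 0.0744, 0.0654 and 0.0594), nor without both of the latter (0.37, limma adjusted p = 0.149). Among epithelial cytokines and chemokines 3 of 6 tested genes were higher and 2 lower, Tnf and the chemokine gene Cxcl16 (-0.73 on the log2 scale, limma adjusted p = 0.0171). Among those that rose were Ccl25 at 52.0 ± 11.8 and 207 ± 66.2 FPKM and Cx3cl1 at 6.95 ± 0.638 and 28.3 ± 4.56 FPKM (SD, n = 4 per group; limma adjusted p = 0.000331 and 1.66e-05). Over all genes 15.5% were higher and 29.0% lower.

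**Figure D5:**
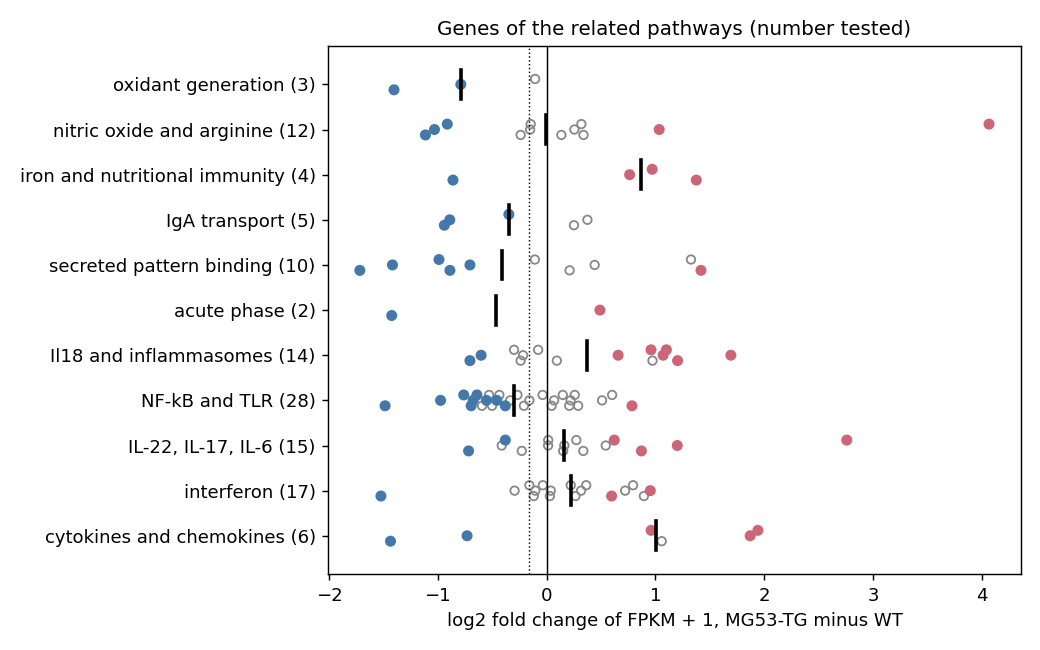
Log2 fold change of FPKM + 1 (x axis, MG53-TG minus WT) of each tested gene of 11 related lists, red for higher, blue for lower and open for genes that did not pass the test, with the list median as a bar and the median of all genes, -0.17, as a dotted line. Genes past the threshold lie on both sides in 9 of the lists and only on the lower side in those of oxidant generation and IgA transport.

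Over these 11 lists, 115 of 205 genes were tested, of which 23 were higher (20%), 30 lower (26.1%) and 62 did not pass. The share past the threshold was 46.1%, near the 44.5% of all genes. Scaled by median of ratios, where the median over all genes moved up by 0.16 on the log2 scale, 30 were higher and 23 lower. From end events alone 14 were higher and 27 lower.

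The genes most like each member over the samples were sought among protein-coding genes whose mean reached 2 FPKM, at least 8986 candidates per member, by the Pearson correlation of log2(FPKM + 1). The samples form 2 groups, so this likeness follows the group difference first, and it is given as a description with no test. Nearest to Duox2 were Perp, a target of p53, and the mannosidase gene Manba, both with r of 0.98 over 8 samples. For Duoxa2 they were the early response gene Ier3 and Vopp1 with r of 0.99 each, and for Nos2 the ribosomal gene Rps9 was among them, with r of 0.99 over 7 samples. Pigr was nearest to the receptor gene Erbb3 and to Hpgd, whose product degrades prostaglandins. Hpgd was at 3.34 ± 0.499 FPKM in WT and 16.1 ± 9.40 FPKM in the MG53-TG samples (SD, n = 4 per group). Dmbt1 was nearest to the splicing gene Snrnp200 and the sterol synthesis gene Cyp51, and Il18 to Lactb and the enteroendocrine granule gene Chga, with r between 0.986 and 0.996 in each case.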

How the data were processed

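RNA sequencing of 4 WT and 4 MG53-TG crypt organoid cultures was analysed. Per the labels, the authors trimmed reads with Cutadapt 1.9.1, mapped them to mm10 with HISAT2 2.0.1 and list HTSeq 0.6.1 and DESeq2. What they deposited are FPKM values of transcript events. For FPKM the study names a tool it spells Heseq, version 0.6.1. The tool that defined the transcript events is not given in the sources used here. The smallest FPKM was 1e-06, which leaves no whole read counts to recover and the depth unknown, and no count-based test was run.

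Exon boundaries of the GENCODE vM21 annotation of GRCm38 placed 94.87% of 128369 events of 20 types in genes and the span of a gene 1.92%. The remaining 3.21% were left out, as were 3 events named for Pigr on the opposite strand. Start events were summed per gene, or end events where their mean was higher (3209 genes). The planned tests assumed 1 value per gene, and this sum took its place. An absent entry was set as missing where the group's other samples reached a median of 0.5 FPKM (563 genes) and as 0 elsewhere. The log2(FPKM + 1) values were fitted in limma 3.58.1 (R 4.3.3; eBayes, trend) for genes whose mean reached 0.5 FPKM, and p-values were adjusted by Benjamini-Hochberg, with 0.05 as the threshold. Values of genes under this filter come from an unfiltered fit. Exact permutation tests of single genes used 70 relabellings (35 for Nos2). Python 3.11.15 and scipy 1.17.1 did the rest.

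The members and lists were chosen with earlier results of these data known. Named beside the members were 14 fixed partner genes, the 2 most increased and 2 most decreased genes of each list that passed the test without overlap between groups, and the 2 genes most like each member. The values of 3 genes that this rule names are not reported here. Mal2, Casp4, Naip5, Naip6, Nlrp1b, Cxcl16, Il10rb, Il17ra, Cd68, S100a8, S100a9, Lyz2, Col1a1, Col1a2, Col3a1, Rac1, Rab11a, Rab25, Pycard, Stat3 and Il22ra1 were named after their values were seen. Tested on simulated data over 10572 genes for MG53-TG against WT, the fit recovered 69% of changed genes at a log2 fold change of 1 and 94% at 2, with 13 unchanged genes called. The alternatives were a constant of 0.1, no filter, a filter at 2 FPKM, scaling by median of ratios or quantiles, a replicate block, sample weights, each sample left out in turn, MG53-TG samples 1 and 2 or 3 and 4 left out (chosen after seeing the data), and other ways to sum events.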

Additional observations from a re-analysis of the deposited data

Results flagged for a closer look

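In 76 groups of 4 samples of the members and named genes, a single sample stood far from the other 3 in 3 groups, where chance gives about 3.8. Lgals4 was at 472.2 FPKM in MG53-TG sample 2, against 315.9 to 336.5 FPKM in the other MG53-TG samples. Nos3 was listed at 0.489 FPKM in MG53-TG sample 3, and the other MG53-TG samples had no entry. Tnf was listed at 0.2668 FPKM in MG53-TG sample 1, and the other MG53-TG samples had no entry. No member was among them.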

How the results depend on the processing

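Of 130 values of the members under other settings, 127 kept their direction and their side of the threshold. The other 3 were of Pigr, with 0.3536 under quantile normalization (limma adjusted p = 0.0536) and a range from 0.4485 to 0.6686 when each sample was left out, in which 6 of 8 fits passed. Leaving out each sample gave -1.745 to -1.29 for Duox2, -1.737 to -1.432 for Duoxa2, -1.237 to -1.035 for Nos2, -1.422 to -1.21 for Dmbt1 and 1.732 to 1.93 for Il18, all past the threshold. Over all settings the limma adjusted p ranged from 0.00144 to 0.0313 for Duox2, 0.00101 to 0.00859 for Duoxa2, 4.97e-05 to 0.0274 for Nos2, 0.000463 to 0.0536 for Pigr, 0.000322 to 0.00295 for Dmbt1 and 5.15e-05 to 0.00102 for Il18. Leaving out each sample also gave 3869 to 5154 genes called over all genes, and 19 to 24 higher and 24 to 34 lower genes in the related lists. From end events alone 14 genes of these lists were higher, in place of 23. Of 741 values of the other named genes, 727 were unchanged in call, 13 lost it and 1 reversed, Lgals4 at -0.1425 from start events alone; the cause was not tested. No value could be had for Duox2, Duoxa2 and Nos2 with a mean of at least 2 FPKM or, in a setting added after seeing the data, with an entry in all 8 samples, and none for Duox2 and Il18 from start events. Under median-of-ratios scaling and quantile normalization 50.2% and 44.5% of the genes called were higher, in place of 34.9%, and the median of all genes rose by 0.16 and 0.11. Same-numbered samples showed little common deviation from their group means (r of 0.083, 0.0155, 0.0933 and -0.0535). Whether they share more than a number is not given in the labels, and these values cannot settle it. With the replicate number as a block 4403 genes were called in place of 4857, 4208 of them in both, no member lost its call, and Nos2 was at -1.24. No WT sample correlated best with the MG53-TG sample of its own number, but for number 1 the r of 0.083 was close to the largest, 0.084. The reverse was not asked for the MG53-TG samples. The depth is unknown, and Duox2, Duoxa2 and Nos2, below 1 FPKM in MG53-TG samples, are the members nearest to its limit.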
